A study of Drosophila melanogaster with 10 samples.

Results

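The proteasome subunit genes described here are the genes of Drosophila melanogaster whose current symbol starts with Prosalpha or Prosbeta, or with Rpn or Rpt followed by a digit. They were taken where a probe set is assigned to a single gene, with the brightest probe set standing for each gene and no filter on dim signal. The rule found 39 of the 10844 genes with such a probe set. Of these, 12 encode ordinary subunits of the core particle, 14 encode ordinary subunits of the base and lid of the regulatory particle, and 13 are paralogs whose symbol carries letters after the number. The rule also covers 9 genes that had no probe set of their own and were not analysed here: Prosalpha1, Prosbeta1, Rpn9, Rpn10, Rpt1, Rpt6, Prosalpha1R, Prosbeta5R2 and Rpt6R.

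The proteasome is the protease complex that breaks down proteins tagged with ubiquitin. Its barrel-shaped core particle, the 20S proteasome, is built of rings of alpha and beta subunits, and the beta subunits 1, 2 and 5 carry the catalytic sites. The 19S regulatory particle caps the core. Its base holds the Rpt ATPases, which unfold substrates and open the gate formed by the alpha rings, together with the scaffold subunits Rpn1 and Rpn2 and the ubiquitin receptor Rpn13. Its lid holds Rpn11, the enzyme that removes ubiquitin chains, with its partner Rpn8 and structural subunits such as Rpn3, Rpn5, Rpn6, Rpn7 and Rpn12. In Drosophila, many paralogs of these genes are known from the testis, and in cells short of proteasome activity the ordinary genes are known to be induced together through the transcription factor encoded by cnc.

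RNA came from heads of nonvirgin females aged 3 to 5 days, with 100 to 200 heads per sample, and the study's labels give behavioural differentiation as its subject. There were 2 arrays of the strain Z30, 1 array of each of the chromosome substitution lines ZZM, ZMZ, ZMM, MZZ, MZM and MMZ, and 2 arrays of the strain Fr. The 3 letters of a line name stand in turn for the strain that gave the X or first chromosome, then the second, then the third (Z for Z30, M for Fr), which gives 5 arrays with Z30 origin and 5 with Fr origin for every chromosome. The origin of the fourth chromosome is not labelled, and each line is a single array of pooled heads with no replicate. The labels do not state whether both arrays of a strain came from separate cultures. Every p-value here therefore measures at most array-to-array spread, which can be technical.

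Values are intensities, called signals below, on the authors' scale, in which every array has a 2% trimmed mean of 500.1. Signals of different genes come from different probe sets and are not compared with each other. Differences are in log2 units, Z30 minus Fr, after raising signals under a floor of 38.9 to that floor. They were tested with limma over 8379 probe sets with a mean signal above 122, and a probe set is called at an adjusted p under 0.05. Heads are a mixture of tissues, so fewer cells of a type and less RNA per cell cannot be told apart. Of the markers of head tissues, the photoreceptor gene trp had signals of 4407 to 14075 and the neuronal gene nSyb 554.5 to 2959, whereas elav and brp, which also mark neurons, had 18.1 to 172.0 and 5.3 to 165.0, with 1 and 3 arrays at the floor. Testis and female germline markers were mostly dim, with the germline gene vas at 7.5 to 85.8 and the testis gene dj at 3.0 to 65.5.

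The arrays MZM, Z30 1 and Fr 1 stood apart from the others. On them, longer genes tended to lie further below their own mean over the 10 arrays, across 7456 genes (Spearman rho of -0.42 on MZM, -0.24 on Z30 1 and -0.36 on Fr 1), against rho of -0.03 to 0.39 on the other 7 arrays. Genes of synaptic vesicle release, of which 10 of 15 listed had a probe set, had a summed signal of 5005 on MZM, against 5374 to 14575 on the other 9. The highest signals on Z30 1 and Fr 1 were 28895 and 26039, against 46285 to 59815 elsewhere. Proteasome genes are short. Their annotated spans had a median of 1201 bases in the core and 1818 bases in base and lid, against 3300 bases over all tested genes. Results are therefore given with and without MZM, and with and without Z30 1 and Fr 1.

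All 26 ordinary subunit genes were expressed well above the floor on every array. Core genes had signals between 677.6 (Prosalpha4 on ZMM) and 4922 (Prosbeta4 on MZM), and base and lid genes between 349.1 (Rpn11 on MZZ) and 3065 (Rpn5 on Z30 1). All 26 passed the filter on dim probe sets. None of them was called as different between the strains, or between the origins of any chromosome. The highest signals gathered on MZM, where 9 of 12 core genes and 7 of 14 base and lid genes had their highest signal of the 10 arrays. The highest array was MZM for 15.9% of all tested probe sets.

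**Figure D1:**
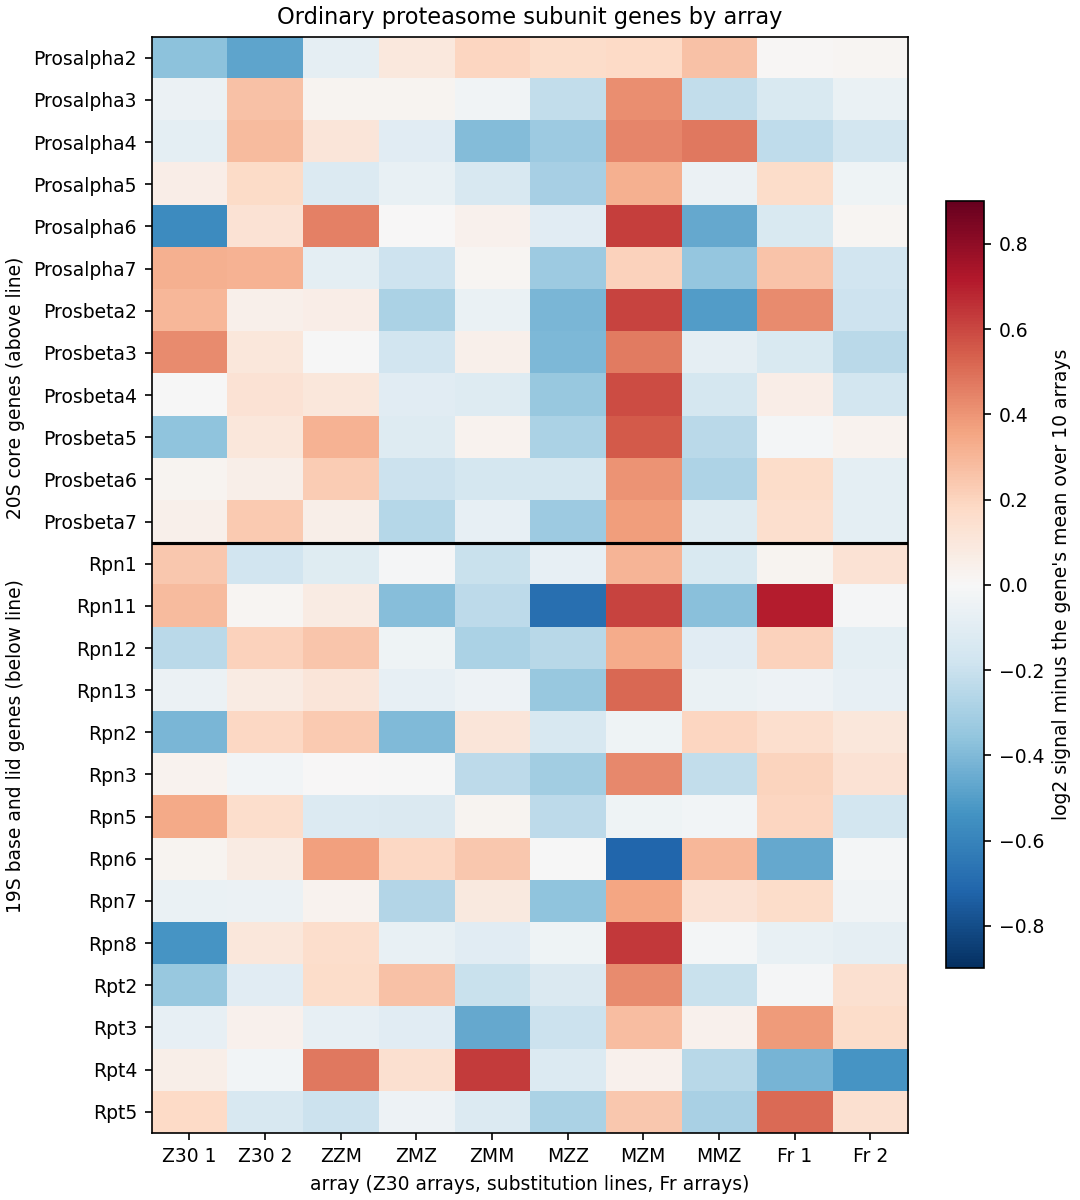
Log2 signal of each of the 26 ordinary subunit genes on each array, minus that gene's mean over the 10 arrays. Columns run from the 2 Z30 arrays through the 6 substitution lines to the 2 Fr arrays, and a line parts the 12 core genes (top) from the 14 base and lid genes (bottom). The MZM column is red for all 12 core genes and MZZ is blue for 11 of them, while Rpn6 is at its lowest on MZM and Prosalpha2 is lowest on the 2 Z30 arrays.

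Prosbeta2 had signals of 3287 on Z30 1 and 2759 on Z30 2 and of 2792 on ZZM, 2202 on ZMZ, 2566 on ZMM, 2014 on MZZ, 4085 on MZM and 1894 on MMZ, against 3604 on Fr 1 and 2357 on Fr 2. Prosbeta2 encodes the subunit with trypsin-like activity, and its highest signals lay on MZM, Fr 1 and Z30 1 and its lowest on MMZ and MZZ, so that Z30 and Fr arrays were mixed through the range. Prosbeta5 had signals of 1898 on Z30 1 and 2622 on Z30 2 and of 3029 on ZZM, 2252 on ZMZ, 2491 on ZMM, 1998 on MZZ, 3575 on MZM and 2058 on MMZ, against 2416 on Fr 1 and 2489 on Fr 2. Prosbeta5 encodes the subunit with chymotrypsin-like activity. It was highest on MZM and ZZM and lowest on Z30 1 and MZZ. The remaining catalytic gene, Prosbeta1, was not analysed here.

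Between the strains no subunit gene was called, and the group medians were small and depended on single arrays. Of the 12 core genes 9 had a difference above 0, with a median of 0.08, and of the 14 base and lid genes 4 did, with a median of -0.13. Over all tested probe sets 51.8% lay above 0, with a median of 0.02. Without Fr 2, 5 of 12 core genes lay above 0, with a median of -0.03 (all tested 47.3% above 0), and without Z30 1, 7 of 14 base and lid genes did, with a median of -0.03 (all tested 50.2%). In limma, 0 of the 26 passed an adjusted p of 0.05, where 0.0358% of all tested probe sets were called. No subunit gene reached an unadjusted p under 0.05, which 4.19% of all did. The 95% intervals of the 26 differences reached 0.62 to 0.87 log2 units to either side, so that differences under about that size could not be detected with 2 arrays per strain. A call needed a larger difference still, because p was adjusted over all 8379 tested probe sets.

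The arrays of both strains did not overlap for 5 of 12 core genes and 6 of 14 base and lid genes, where 28.5% of all tested probe sets showed the same with 2 arrays against 2. In the core, Prosbeta3 had the largest difference upward. Prosbeta3 had signals of 2362 on Z30 1 and 1886 on Z30 2, against 1602.5 on Fr 1 and 1491 on Fr 2. It encodes a noncatalytic beta subunit, and both Z30 arrays lay above both Fr arrays (log2 difference 0.45 ± 0.28 (SE), adjusted p = 0.9998 in limma, or 0.29 without Z30 1). Prosalpha3, Prosalpha4 and Prosalpha7, which encode subunits of the alpha ring, also lay higher on both Z30 arrays, with differences of 0.20, 0.29 and 0.27. Prosalpha2, another alpha ring gene, went the other way. Prosalpha2 had signals of 2623 on Z30 1 and 2438 on Z30 2, against 3407 on Fr 1 and 3429 on Fr 2. Its Z30 arrays lay below both Fr arrays and below all 6 lines, and the difference was -0.43 ± 0.26 (adjusted p = 0.9998 in limma). Its unadjusted p was 0.143, and 0.0381 with the array number as a block.

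Among the ATPase genes of the base, Rpt4 lay higher in Z30. Rpt4 had signals of 1007 on Z30 1 and 952.3 on Z30 2, against 725.0 on Fr 1 and 670.6 on Fr 2. The groups did not overlap, and the difference was 0.49 ± 0.29 (adjusted p = 0.9998 in limma). Rpt5 had the largest difference in the other direction. Rpt5 had signals of 2198.5 on Z30 1 and 1757 on Z30 2, against 2763 on Fr 1 and 2144 on Fr 2. The arrays overlapped, and the difference was -0.31 ± 0.29, or -0.13 without Fr 1 and -0.49 without Fr 2. Rpt2 and Rpt3 had a difference of -0.29 each, with both Z30 arrays below both Fr arrays. In the lid, Rpn6 lay higher on both Z30 arrays (0.29), and Rpn3 and Rpn7 lower on both (-0.16 and -0.12). The catalytic genes had differences of 0.05 ± 0.32 (Prosbeta2) and -0.14 ± 0.29 (Prosbeta5), with overlapping arrays for Prosbeta2 and for Prosbeta5. Summed markers of the female germline had signals of 522.3 to 668.2 on the Z30 arrays and 729.9 to 958.9 on the Fr arrays, and the sums of the other 7 marker lists overlapped. Sums can hide single genes of a list. The glial marker nrv2, a subunit gene of the sodium pump, had signals of 734.8 and 746.9 on the Z30 arrays, against 180.8 and 125.6 on the Fr arrays. Its difference was 2.30 ± 0.40 (adjusted p = 0.280 in limma, 8.96e-11 with the array number as a block). Of 36 measured marker genes 27 passed the filter and were tested. Limma called 0 of these without the block and 4 with it, where 6.58% of all tested probe sets were called. The 4 were nrv2, the muscle gene Mlc2 (-0.38) and the fat body genes fit (0.75) and Lsp2 (-1.34). The part of these markers in the differences of subunit genes was not tested.

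With the array number as a block, so that Z30 1 was set against Fr 1 and Z30 2 against Fr 2, limma called 6.58% of all tested probe sets between the strains but still 0 of the 26 subunit genes. Prosalpha2 alone had an unadjusted p under 0.05 there, against 16.5% of all. With 1 residual degree of freedom, limma took the spread in that fit from the trend over all genes. A gene's own arrays added nothing to it, so a blocked p does not measure that gene's own spread. The lowest blocked adjusted p among the 26 was 0.255. Without the trend over genes, the blocked fit called 47 of the 8379 tested probe sets in place of 551.

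**Figure D2:**
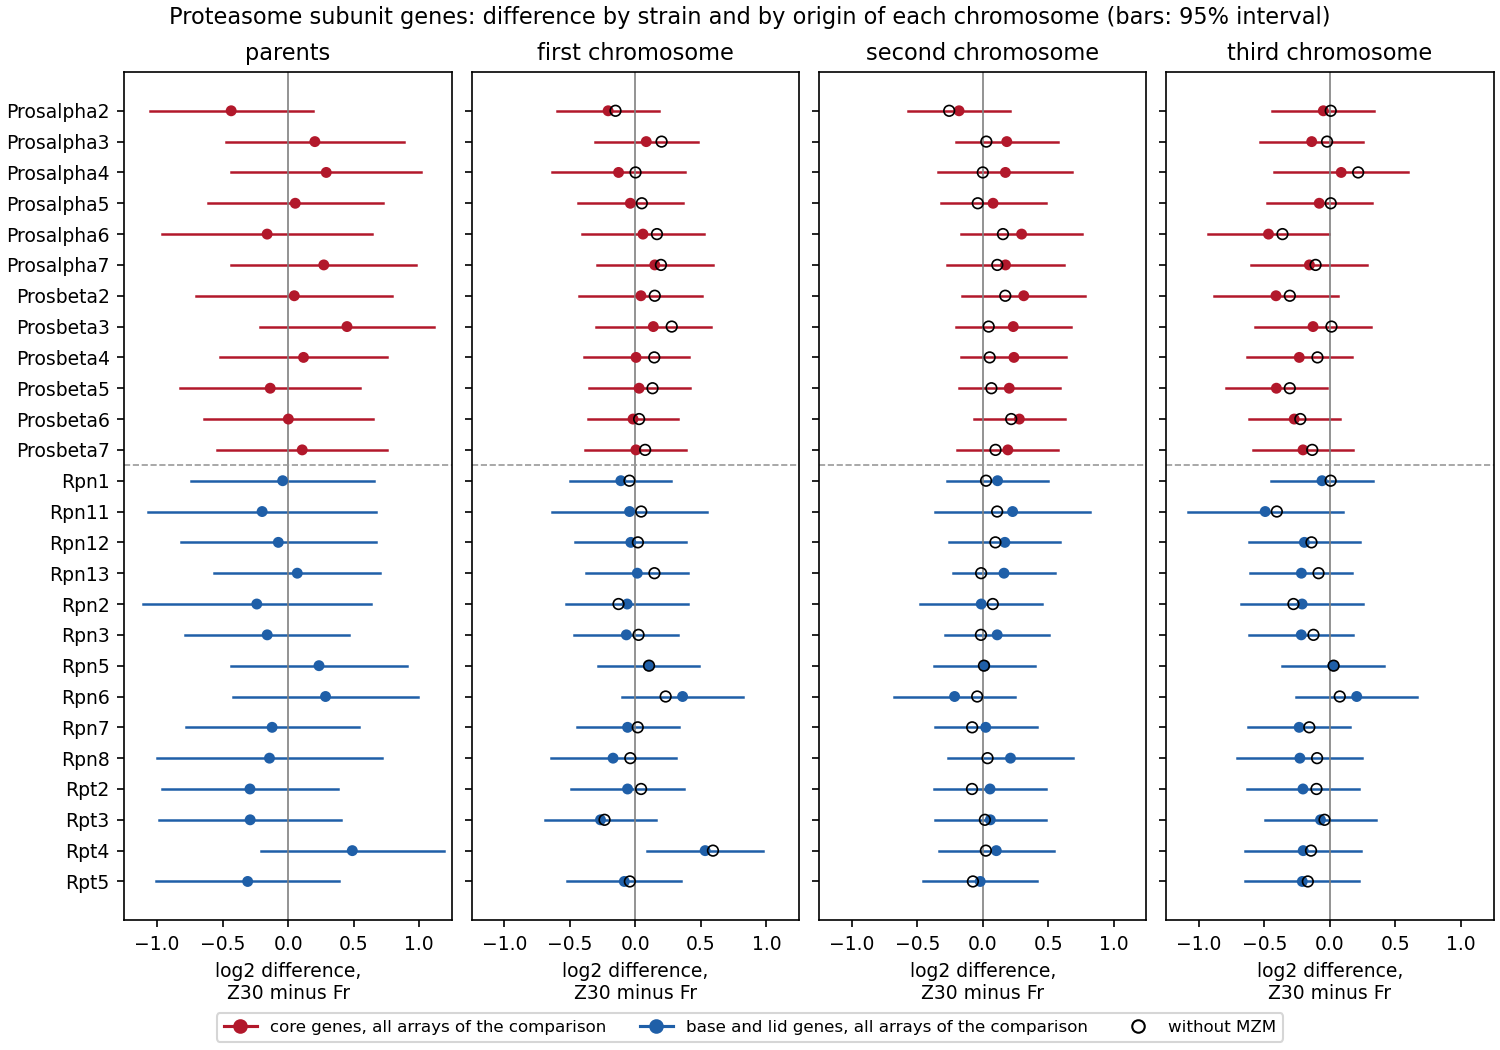
Log2 difference, Z30 minus Fr, of each ordinary subunit gene between the parent strains and between the origins of the first, the second and the third chromosome. Filled points with bars are limma coefficients with 95% intervals, red for core and blue for base and lid genes, and open circles are the values without MZM. Only Rpt4 for the first chromosome and Prosalpha6 and Prosbeta5 for the third have intervals that leave out 0, and the core genes' open circles lie to the right of the filled points for the first and the third chromosome.

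For the origin of the first (X) chromosome, Rpt4, itself X-linked, had the largest difference of the 26 genes. With the chromosome from Z30, Rpt4 had signals of 1007 on Z30 1, 952.3 on Z30 2, 1349 on ZZM, 1073 on ZMZ and 1496 on ZMM. With that from Fr it had 889.6 on MZZ, 995.6 on MZM, 816.6 on MMZ, 725.0 on Fr 1 and 670.6 on Fr 2. All Z30-origin arrays but Z30 2 lay above every Fr-origin array, and Z30 2 lay below MZM only. The means were 1175 ± 235.3 with Z30 origin and 819.5 ± 129.5 with Fr origin (SD, n = 5 arrays each). The log2 difference was 0.53 ± 0.20 (SE), with a 95% interval of 0.09 to 0.97, an unadjusted p of 0.0223 and an adjusted p of 0.9993 in limma. It was 0.59 without MZM, where the arrays of both origins did not overlap for Rpt4 and for Prosalpha3, against 1.28% of all tested probe sets. In the 6 lines alone it was 0.42. Without ZMM it was 0.37 with an unadjusted p of 0.143 (adjusted p = 0.9998 in limma), and the unadjusted p was 0.0504 without ZZM and 0.0551 with each array divided by its median, so that the 95% interval then held 0.

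Rpt4 lay higher with the X chromosome from Z30 in each of the 4 pairs of genotypes whose labelled origins differ in the first chromosome only. The differences were 1.10 for ZMM minus Fr, 0.39 for ZMZ minus MMZ, 0.44 for ZZM minus MZM and 0.14 for Z30 minus MZZ, with the 2 arrays of a strain averaged. Rpn8, the lid partner of Rpn11, lay lower in all 4, by values from -0.48 to -0.03. These were 2 of 26 genes with the same sign in all 4 pairs, against 9.07% of all tested probe sets, so this count does not set the subunit genes apart.

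The other subunit genes differed little by X origin. Rpt3, the other X-linked ATPase gene, had the lowest value. With the chromosome from Z30, Rpt3 had signals of 811.3 on Z30 1, 877.0 on Z30 2, 808.5 on ZZM, 794.3 on ZMZ and 619.0 on ZMM. With that from Fr it had 746.2 on MZZ, 1033 on MZM, 877.4 on MMZ, 1112 on Fr 1 and 955.8 on Fr 2. The arrays of the origins overlapped, and the difference was -0.27 ± 0.19 (unadjusted p = 0.195, adjusted p = 0.9993 in limma), or -0.43 without MZZ and -0.09 without ZMM. Prosalpha4, the only X-linked core gene, had -0.13. In the core, Prosalpha7 lay highest (0.15 ± 0.20, or 0.01 without MZZ) and Prosalpha2 lowest (-0.21 ± 0.18, or -0.12 without MZZ), and the catalytic genes had 0.04 ± 0.21 (Prosbeta2) and 0.03 ± 0.17 (Prosbeta5). Rpn6 of the lid had 0.36, the second highest value of the base and lid genes.

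As groups, 8 of 12 core genes and 4 of 14 base and lid genes lay above 0 by X origin, with medians of 0.02 and -0.06, where 50.3% of all tested probe sets lay above 0. Limma called 0 of the 26, against 0.0597% of all, and 1 (Rpt4) had an unadjusted p under 0.05, against 2.47% of all. The group medians followed single arrays. Without MZM, 11 core genes and 9 base and lid genes lay above 0, with medians of 0.14 and 0.02 (all tested 49.3% above 0), whereas in the 6 lines alone 1 core gene and 3 base and lid genes did, with medians of -0.19 and -0.13 (all tested 49.8%). The core medians of the 4 matched pairs were -0.05 for ZMM minus Fr, 0.07 for ZMZ minus MMZ, -0.33 for ZZM minus MZM and 0.41 for Z30 minus MZZ. The pair with MZM had the lowest of these and the pair with MZZ the highest.

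For the origin of the second chromosome, most subunit genes lay slightly higher with the chromosome from Z30, by less without MZM. Of the core genes 11 of 12 lay above 0, with a median of 0.20, and of the base and lid genes 11 of 14, with a median of 0.08, where 47.7% of all tested probe sets lay above 0 with a median of -0.02. Without MZM, which carries this chromosome from Z30, the medians were 0.06 in the core and 0.01 in base and lid, with 10 and 8 genes above 0 (all tested 49.1%). In the 6 lines alone they were -0.01 and 0.00, with 6 and 7 genes above 0 (all tested 50.4%). The core median was 0.50 for MZM minus Fr, -0.07 for MZZ minus MMZ, 0.12 for ZZM minus ZMM and 0.19 for Z30 minus ZMZ.

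Limma called 0 of the 26 by origin of the second chromosome, against 0.0358% of all tested probe sets. No subunit gene reached an unadjusted p under 0.05, which 4.08% of all did. Prosbeta2 had the largest difference. With the chromosome from Z30, Prosbeta2 had signals of 3287 on Z30 1, 2759 on Z30 2, 2792 on ZZM, 2014 on MZZ and 4085 on MZM. With that from Fr it had 2202 on ZMZ, 2566 on ZMM, 1894 on MMZ, 3604 on Fr 1 and 2357 on Fr 2. The arrays overlapped, and the difference was 0.31 ± 0.21 (adjusted p = 0.9999 in limma), or 0.17 without MZM. Prosbeta5 had 0.20 ± 0.17, or 0.07 without MZM, and Prosalpha2, the only core gene below 0, had -0.18 ± 0.18, or -0.11 without ZMM or without ZMZ. Among base and lid genes, Rpn11 lay highest (0.23 ± 0.27, or 0.11 without MZM and 0.09 without ZMM) and Rpn6 lowest (-0.21 ± 0.21, or -0.04 without MZM). Prosalpha3, Prosbeta2, Prosbeta6 and Rpn1 lay higher with the chromosome from Z30 in all 4 matched pairs, as did 6.71% of all tested probe sets. With both directions counted, 3 of 12 core genes and 1 of 14 base and lid genes had the same sign in all 4. Of all tested probe sets 13.4% did, so over the 26 this count does not set the subunit genes apart.

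For the origin of the third chromosome, most subunit genes lay lower with the chromosome from Z30. Of the core genes 1 of 12 lay above 0, with a median of -0.18, and of the base and lid genes 2 of 14, with a median of -0.21, where 55.1% of all tested probe sets lay above 0 with a median of 0.04. Without MZM, which carries the third chromosome from Fr, the medians were -0.10 and -0.11, with 4 and 3 genes above 0 (all tested 54.5%). In the 6 lines alone they were -0.38 and -0.24, with 0 and 1 above 0 (all tested 53.1%). The core median was -0.14 for MMZ minus Fr, -0.72 for MZZ minus MZM, -0.07 for ZMZ minus ZMM and 0.03 for Z30 minus ZZM. The base and lid median was -0.10, -0.54, 0.00 and -0.09 in the same 4 pairs. The pair of MZZ and MZM, whose arrays had the lowest and the highest core signals, gave the largest difference.

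Limma called 0 of the 26 by origin of the third chromosome, against 0.0955% of all tested probe sets. An unadjusted p under 0.05 was reached by 2 core genes, Prosalpha6 and Prosbeta5, against 4.49% of all, and by none of the 26 without MZM. Leaving out Fr 2, MMZ, MZZ or ZMM singly, or Z30 1 and Fr 1 together, also left none. The same held in the 6 lines alone and without the variance trend. Leaving out any other single array left 1 or 2 such genes, and dividing each array by its median gave 4. Prosalpha6 encodes an alpha ring subunit. With the chromosome from Z30, Prosalpha6 had signals of 810.0 on Z30 1, 1309 on Z30 2, 1203 on ZMZ, 1114 on MZZ and 868.9 on MMZ. With that from Fr it had 1638 on ZZM, 1228 on ZMM, 1847 on MZM, 1091 on Fr 1 and 1213 on Fr 2. The origins overlapped, with means of 1061 ± 214.8 with Z30 origin and 1403 ± 322.6 with Fr origin (SD, n = 5 arrays each). The difference was -0.47 ± 0.21, with a 95% interval of -0.93 to -0.01, an unadjusted p of 0.0472 and an adjusted p of 0.9984 in limma, and it was -0.36 without MZM.

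The catalytic gene Prosbeta5 had means of 2166 ± 285.9 with Z30 origin and 2799.8 ± 498.2 with Fr origin (SD, n = 5 arrays each). All Z30-origin arrays but Z30 2 lay below all Fr-origin arrays. The difference was -0.41 ± 0.17 (95% interval -0.79 to -0.02, unadjusted p = 0.0395, adjusted p = 0.9984 in limma), and -0.31 without MZM. The difference of Prosbeta2 was also -0.41 (SE 0.21, unadjusted p = 0.0794), with means of 2431 ± 581.9 with Z30 origin and 3081 ± 733.9 with Fr origin (SD, n = 5 arrays each). Prosalpha4 was the core gene with a value above 0 (0.09 ± 0.23), and it was -0.24 in the 6 lines alone.

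In the lid, Rpn11, the deubiquitinating enzyme, had the lowest value of all 26. With the chromosome from Z30, Rpn11 had signals of 680.7 on Z30 1, 565.4 on Z30 2, 428.9 on ZMZ, 349.1 on MZZ and 430.9 on MMZ. With that from Fr it had 590.3 on ZZM, 475.8 on ZMM, 852.8 on MZM, 913.3 on Fr 1 and 554.6 on Fr 2. The arrays overlapped, and the highest signal lay on Fr 1, the next on MZM and the lowest on MZZ. The difference was -0.49 ± 0.27 (unadjusted p = 0.0935, adjusted p = 0.9984 in limma), or -0.41 without MZM and -0.27 without MZZ. Rpn6, another lid gene, had the largest difference upward (0.20 ± 0.21), which was 0.07 without MZM and 0.06 without MMZ. Prosalpha6, Prosbeta5, Prosbeta6 and Rpn13 lay lower with the chromosome from Z30 in all 4 matched pairs, as did 5.79% of all tested probe sets. With both directions counted, 3 of 12 core genes and 1 of 14 base and lid genes had the same sign in all 4. Of all tested probe sets 11.6% did, so over the 26 this count does not set the subunit genes apart. With a term for the arrays Z30 1 and Fr 1, unadjusted p under 0.05 was reached by Prosalpha6, Prosbeta2, Prosbeta5 and Rpn11, against 7.51% of all, and 0 of the 26 were called, against 0.406%. Without MZM as well, Prosalpha6 alone had such a p, against 7.27% of all, and 0 of the 26 were called, against 0.549%. With that term and MZM kept, 0 of the 26 were also called for the first chromosome, against 0.107% of all, and for the second, against 0.155%.

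**Figure D3:**
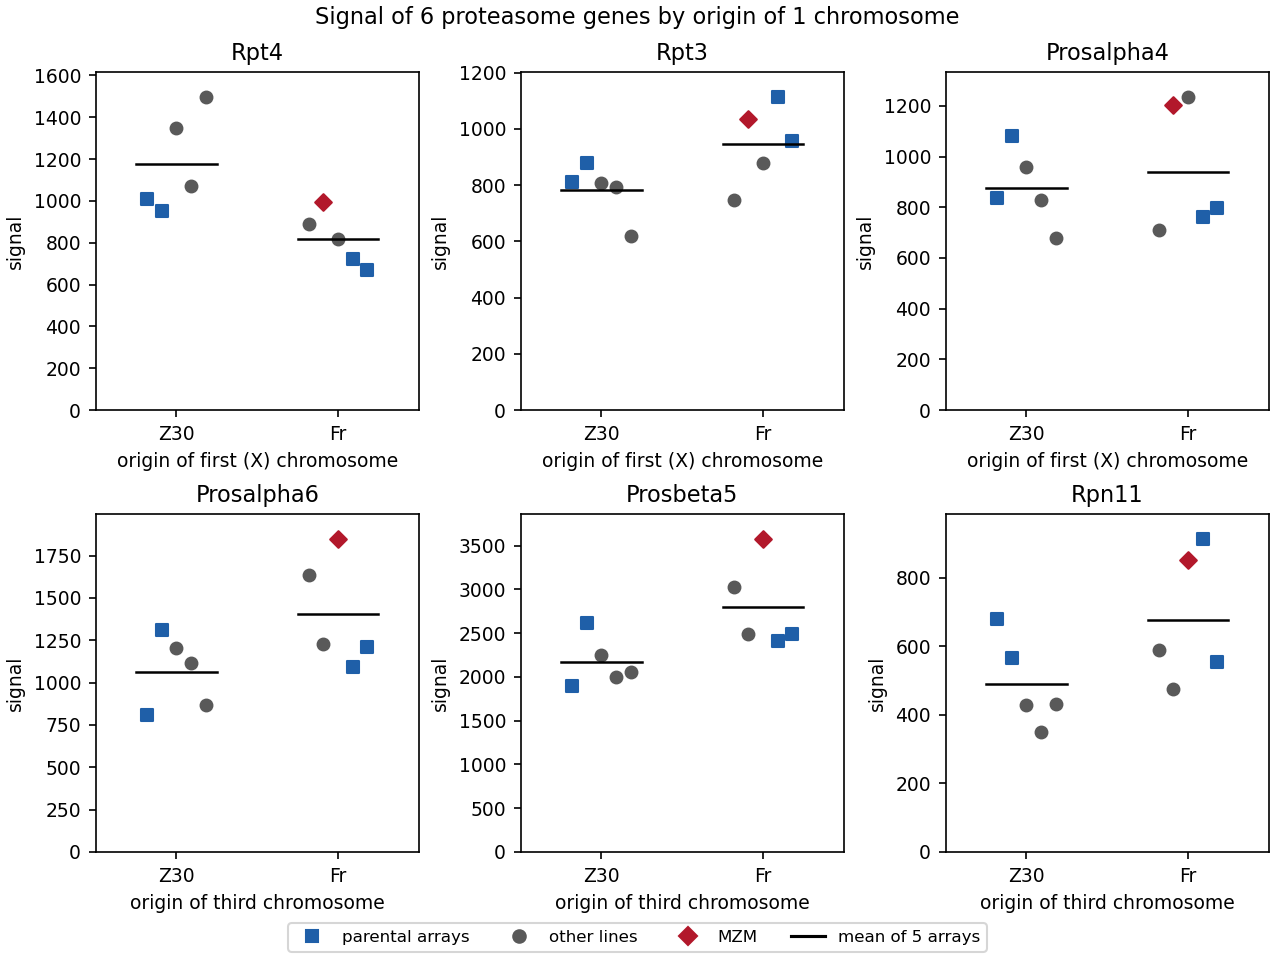
Signal of the 3 X-linked subunit genes by origin of the first chromosome (top) and of Prosalpha6, Prosbeta5 and Rpn11 by origin of the third (bottom), with Z30 origin left of Fr origin. Each point is 1 array (squares are parent arrays, the diamond is MZM, circles are the other lines) and black lines are means of 5 arrays. Rpt4 lies higher with Z30 origin at means of 1175 and 819.5, and in the lower panels MZM is the highest or second highest array of the Fr-origin group.

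Leaving out Z30 1 and Fr 1 gave medians by origin of 0.04 in the core and -0.02 in base and lid for the first chromosome, 0.21 and 0.09 for the second, and -0.20 and -0.17 for the third. The 95% intervals of the chromosome differences reached 0.35 to 0.59 log2 units to either side over the 10 arrays. Without MZM, limma called 0 of the 26 for any chromosome, against 0.0119% of all tested probe sets for the first, 0.0358% for the second and 0.107% for the third, and Rpt4 was the only subunit gene with an unadjusted p under 0.05. For Rpt4 and the first chromosome limma gave an unadjusted p of 0.0221 and an adjusted p of 0.9999 there. The share of all tested probe sets under that p was 1.86% for the first, 2.94% for the second and 3.51% for the third. Over all 10 arrays, no subunit gene had arrays of both origins apart without overlap, against 0.943%, 1.11% and 1.58% of all for the first, the second and the third chromosome. Without MZM none did for the second (2.46% of all) or the third chromosome (2.35%).

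Of the markers of other cell types, the summed signals of all 8 lists overlapped between the origins of each chromosome, but single genes moved. Of the 36 measured markers 27 were tested. Limma called 1 of these for the third chromosome, Lsp2, a storage protein gene of the fat body, and none for the first or the second. With the third chromosome from Z30, Lsp2 had signals of 1159.8 on Z30 1, 2204 on Z30 2, 728.0 on ZMZ, 696.5 on MZZ and 482.0 on MMZ. With that from Fr it had 27646 on ZZM, 28018 on ZMM, 23980 on MZM, 1913 on Fr 1 and 8602 on Fr 2. Lsp2 lay lower with the chromosome from Z30, with a difference of -4.28 ± 0.49 (adjusted p = 0.00639 in limma). The origins overlapped, since Fr 1 lay below Z30 2. For the second chromosome, nrv2 lay higher with Z30 origin (734.8, 746.9, 756.0, 993.5 and 348.2 on Z30 1, Z30 2, ZZM, MZZ and MZM) than with Fr origin (258.4, 252.3, 190.1, 180.8 and 125.6 on ZMZ, ZMM, MMZ, Fr 1 and Fr 2), with no overlap. Its difference was 1.63 ± 0.27 (adjusted p = 0.136 in limma, and 0.0472 with the term for Z30 1 and Fr 1). Their part in the differences of subunit genes was not tested.

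The chromosome a gene lies on was also set apart from the other 2. For a gene's own chromosome, the median size of the difference was 0.19 in the core and 0.21 in base and lid, and for the other 2 chromosomes it was 0.14 and 0.08. Over all tested probe sets on these chromosomes the values were 0.22 and 0.18. Without MZM they were 0.06 and 0.15 in the core, 0.11 and 0.07 in base and lid, and 0.21 and 0.15 over all, own chromosome first. In the 6 lines alone they were 0.21 and 0.22 in the core, 0.14 and 0.19 in base and lid, and 0.31 and 0.27 over all. The order thus turned round in the core both without MZM and in the 6 lines, and in base and lid in the 6 lines. Of the 12 core genes 1 lies on X, 6 on the second and 5 on the third chromosome, and of the 14 base and lid genes 2, 5 and 7.

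On the single array of MZM, subunit genes lay above what the other 9 arrays predict for its 3 chromosome origins. The median excess was 0.49 log2 units in the core and 0.29 in base and lid, against -0.02 over all tested probe sets, and a single array allows no test. All 12 core genes and 12 of 14 base and lid genes lay above the prediction, against 48.7% of all tested probe sets. The summed core signal was 32406 on MZM, against 20377 to 25392 on the other arrays. As a share of all signal on an array, the core had 0.274% on MZM, against 0.178% to 0.255% elsewhere. Base and lid had 0.185% on MZM, against 0.138% to 0.204% elsewhere, so by share MZM was not their highest array. An excess of more than 1.5-fold was seen for Prosalpha4, Prosbeta3, Prosbeta4, Rpn8 and Rpn13, against 12.5% of all.

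Prosbeta4, a noncatalytic beta subunit gene, had a signal of 4922 on MZM and 2595 to 3597 elsewhere. Prosbeta3 had 2436 on MZM and 1328 to 2362 elsewhere. Rpn13, the ubiquitin receptor of the base, had 2785 on MZM and 1539 to 2105 elsewhere, and Rpn8 had 890.5 on MZM and 395.7 to 639.6 elsewhere. For these 4 genes MZM lay above all other arrays. Prosalpha4 had 1204 on MZM but 1234 on MMZ, with 677.6 to 1082 on the other 8. The lid gene Rpn6 went the other way, with 916.2 on MZM and 1095 to 1945 elsewhere. It was the only one of the 26 genes at its lowest on MZM, as 20.1% of all tested probe sets were, and the only one more than 1.5-fold below prediction, as 23.1% were. Its deviation was -0.60 log2 units, and that of the base scaffold gene Rpn2 was -0.31.

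The excess on MZM stood beside other traits of that array. Removing each array's trend with gene length gave a median excess of 0.39 in the core and 0.22 in base and lid. Dividing each array by its own median raised the median over all tested probe sets on MZM by 0.29 log2 units, to 0.27, and the core and the base and lid medians were 0.77 and 0.58 on that scale. Of the marker lists, summed photoreceptor signal (3 of 6 genes measured) was 93342 on MZM, against 43316 to 91764 elsewhere, and summed synaptic signal was the lowest of the 10. The sums for neurons, fat body, muscle, glia, female germline and testis on MZM lay within the range of the other arrays. Within the neuron list, the dim genes elav and brp had their lowest signals on MZM (18.1 and 5.3, both under the floor). All 4 measured neuron genes lay below prediction there, with a median of -0.79 log2 units. The part of these traits in the excess was not tested.

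**Figure D4:**
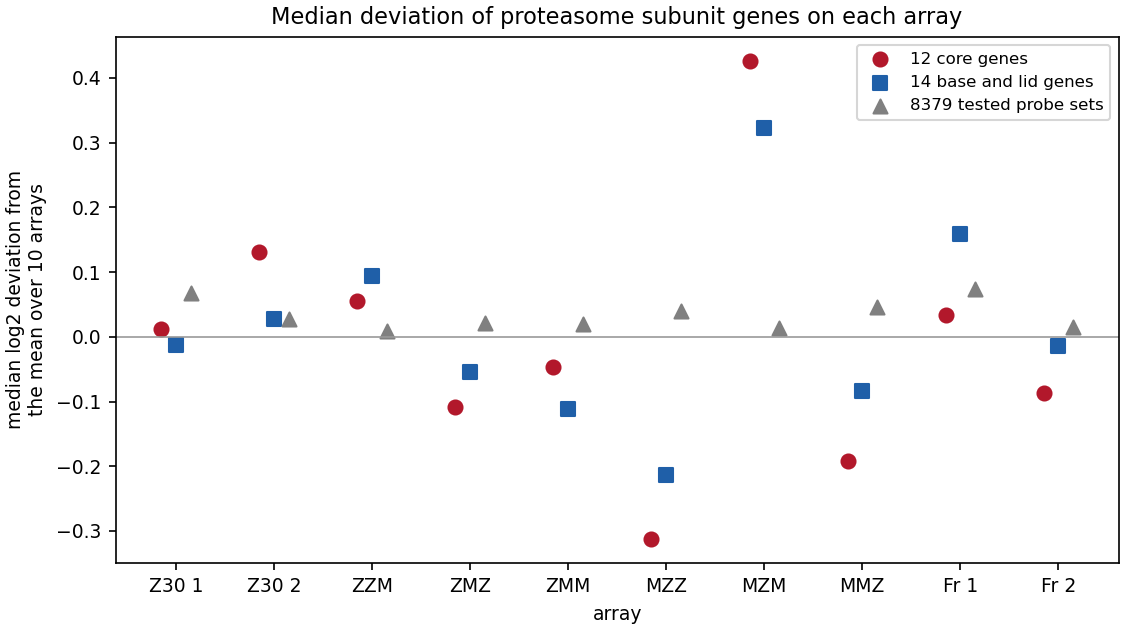
Median log2 deviation from each gene's mean over the 10 arrays, by array, for the 12 core genes (circles), the 14 base and lid genes (squares) and all tested probe sets (triangles). Core and base and lid genes are highest on MZM, at 0.43 and 0.32, and lowest on MZZ, at -0.31 and -0.21, while the median of all tested probe sets stays between 0.01 and 0.07.

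MZZ lay at the other end. Its core genes had a median deviation from their means of -0.31 and its base and lid genes of -0.21, and 4 core genes and 5 base and lid genes had their lowest signal there, against 8.26% of all tested probe sets. Below their mean lay 11 of 12 core genes and 14 of 14 base and lid genes. Against the prediction from the other 9 arrays, the median on MZZ was -0.53 in the core and -0.38 in base and lid. Over all tested probe sets it was 0.00. By this measure MZZ departed further than MZM, which had 0.49 and 0.29. Each of these 2 arrays entered the prediction for the other. In their labelled origins MZM and MZZ differ only in the third chromosome. On the 2 Z30 arrays the core deviated by 0.01 (Z30 1) and 0.13 (Z30 2), and on the 2 Fr arrays by 0.03 (Fr 1) and -0.09 (Fr 2). For base and lid the values were -0.01 and 0.03 on Z30 1 and Z30 2, and 0.16 and -0.01 on Fr 1 and Fr 2.

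The co-variation of subunit genes across arrays was described by correlations. The median Pearson r was 0.63 over 66 pairs of core genes, 0.28 over 91 pairs of base and lid genes and 0.42 over 168 mixed pairs, all over 10 arrays, where all pairs of tested probe sets had a median of 0.00. The points of a pair share their arrays and the scale of each array, so these values are a description only. Without MZM the 3 medians were 0.38, 0.20 and 0.26, and without Z30 1 and Fr 1 they were 0.78, 0.41 and 0.55. Set against the mean of the other core genes, Prosbeta4 had an r of 0.99 over the 10 arrays and 0.97 without MZM, and Rpn13 had 0.96 and 0.89. Prosalpha2 had -0.28 and -0.76, the only core gene below 0 in both, and Rpn6 had -0.64 and -0.10. Without Z30 1 and Fr 1 these 4 genes had 0.99, 0.98, -0.32 and -0.68.

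The 13 paralogs were dim in these heads. Their signals ran from 4.2 to 298.4, none passed the filter, 12 of 13 lay at the floor on at least 1 array, and Prosbeta4R2 lay at the floor on all 10. Rpt4R, a paralog of Rpt4, had 298.4 on Z30 1 and 241.1 on Fr 1, the 2 arrays with the lowest top signals, and 45.9 to 143.0 on the other 8. Rpn13R, X-linked, had 236.9 on MMZ, 110.0 on ZMZ, 119.6 on MZZ and 126.3 on ZMM, and 18.4 to 46.7 on the other 6 arrays. In the fit without the filter limma called 0 of the 39 members in any comparison. There 0% of all probe sets were called between the strains, 0.0143% for the first, 0.00716% for the second and 0.0215% for the third chromosome. The smallest unadjusted p among paralogs was 0.0094, for Prosbeta4R1 between the strains (48.3 and 53.7 on the Z30 arrays, 38.2 and 6 on the Fr arrays, both of these under the floor, adjusted p = 0.793). Second probe sets of Prosalpha7 and Prosbeta6 had signals of 19.8 to 120.3 and 7.4 to 84.3.

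Genes around the proteasome were read from 4 lists, chosen with earlier results of these data known. Of 8 measured accessory genes (assembly chaperones, activators and the deubiquitinases Usp14 and Uch-L5), 7 shuttle and segregase genes, 7 genes of ubiquitin supply and 4 regulators, 0 were called in any comparison without a block. The largest accessory difference was -0.61, for Uch-L5 by origin of the third chromosome, and the largest shuttle difference was -0.37, for the cofactor gene p47 by origin of the third chromosome. In ubiquitin supply it was -0.33, for the conjugating enzyme gene ben by origin of the second chromosome. With the term for Z30 1 and Fr 1 and without MZM, these differences were -0.78 (Uch-L5), -0.34 (p47) and 0.03 (ben). With the array number as a block 1 regulator was called, Keap1, which encodes the adaptor that holds the cnc protein in check. It had signals of 389.2 and 217.6 on the Z30 arrays and 328.8 and 40.6 on the Fr arrays, with Fr 2 near the floor and the groups overlapping. Its difference was 1.33, with a blocked adjusted p of 0.0288 in limma, 0.300 without the variance trend and 0.9998 without the block.

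On MZM the lists around the proteasome did not all share the excess of the core. The segregase genes TER94, Ufd1 and Npl4, whose products pull ubiquitinated proteins out of complexes, lay 0.82, 0.81 and 0.61 above prediction. The shuttle gene Rad23, which delivers ubiquitinated proteins to the proteasome, lay 0.89 below it, and the list median was 0.02. The accessory list had a median of 0.04 and the genes of ubiquitin supply one of 0.35. Of the latter, the polyubiquitin gene Ubi-p5E lay 0.41 above prediction and the conjugating enzyme gene ben 0.74 below it. The regulator cnc had 162.9 on MZM, its lowest signal, against 385.2 to 769.0 on the other 9 arrays, and foxo, another transcription factor gene, had 73.2, against 195.5 to 558.5. The regulator maf-S was also lowest on MZM (674.9), and Keap1 was not (151.1). MZM was the lowest array for 20.1% of all tested probe sets.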

How the data were processed

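Head RNA of 10 samples was measured on oligonucleotide arrays of 14010 probe sets. The deposited values are intensities on a linear scale, and the authors' software is not given in the sources used here. An equal 2% trimmed mean on every array shows that the authors had scaled the intensities. The number of arrays limits the precision.

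The 44 control probe sets were left out, which left 13966. Values under the pooled 20th percentile (38.9) were set to it and log2 was taken. Tests kept the 8379 probe sets whose mean log2 exceeded the 40th percentile. Symbols were updated through Entrez identifiers, for 12394 of 12443 probe sets with a single gene, and 327 had several genes and 1196 none. Chromosome arms and gene spans came from the RefSeq annotation.

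Tests used limma 3.58.1 in R 4.3.3 (lmFit, eBayes with a variance trend, two-sided, Benjamini-Hochberg adjustment over all tested probe sets), checked on simulated data. The strains were compared on 4 arrays (2 residual degrees of freedom). Chromosome origins were terms of an additive model over 10 arrays (6 residual degrees of freedom). The prediction for MZM, and likewise for MZZ, came from that model on the other 9 arrays. Alternatives covered scaling, floor, filter, variance trend, gene length, probe set choice and left-out arrays.

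Members, lists and tests were chosen with earlier results of these data known. Full values are given for Prosbeta2 and Prosbeta5, for called members, and for the core and the base or lid gene with the largest difference in each direction of each comparison. Other list genes are named where called or largest in their list. Any other gene named was chosen after its values were seen. The pairing of array numbers between the strains is a shared number only and was checked once, as given with the alternatives.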

Additional observations from a re-analysis of the deposited data

Results flagged for a closer look

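In 46 groups of 4 to 10 arrays, 2 held an array far from the rest by Dixon's criterion, which chance meets in about 1 group in 20. The first was the lid gene Rpn11 on Fr 1, with a signal of 913.3, among the 5 arrays with the second chromosome from Fr. The other 4 had 428.9 on ZMZ, 475.8 on ZMM, 430.9 on MMZ and 554.6 on Fr 2, so the gap was 0.741 of the group's range. The second was the core median on MZM, with a deviation of 0.427 log2 units, among the 5 arrays with the third chromosome from Fr. The others lay at 0.05 on ZZM, -0.05 on ZMM, 0.03 on Fr 1 and -0.09 on Fr 2, and the gap was 0.725 of the range.

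Of 12 comparisons of an effect between 2 backgrounds, 1 had every matched pair of one background on the other side of 0 from every pair of the other. It was the effect of X origin on the core median. With the third chromosome from Z30 the core medians were 0.07 (ZMZ minus MMZ) and 0.41 (Z30 minus MZZ), and with the third chromosome from Fr they were -0.05 (ZMM minus Fr) and -0.33 (ZZM minus MZM). The mean of the pairs differed by 0.427 log2 units. This difference was not tested. With 2 pairs in each background, chance alone can readily give such a split of signs. The pair at 0.41 holds MZZ, the array with the lowest core median, and the pair at -0.33 holds MZM, the one with the highest.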

How the results depend on the processing

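The count of called subunit genes was 0 for the strains and for each chromosome under every alternative that was run, leaving out each array in turn included. With the replicate block for the strains, 551 of all tested probe sets were called in place of 3. The block cannot move the differences in this design of 2 pairs, only their errors, and it called 0 subunit genes but added calls for Keap1 and for the markers Lsp2, fit, Mlc2 and nrv2. Deviations of same-numbered arrays correlated across probe sets (r = 0.64), but with 2 pairs the numbers are not taken as a pairing. In the 6 lines alone the core medians were -0.19 for the first, -0.010 for the second and -0.38 for the third chromosome. With each array divided by its median the excess on MZM was 0.77 in the core and 0.58 in base and lid, where all tested probe sets had a median of 0.27. Leaving out arrays singly gave core medians of -0.029 to 0.20 for the strains, -0.11 to 0.14 for the first, 0.06 to 0.31 for the second and -0.29 to -0.09 for the third chromosome. In base and lid they were -0.21 to -0.028, -0.18 to 0.06, 0.01 to 0.16 and -0.23 to -0.11.

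Of 23 differences of genes named by rule, 17 moved by over 1.5 times when 1 array was left out, and the other 6 did not (Prosalpha2 and Rpt4 between the strains, Rpt4 for the first, and Prosalpha6, Prosbeta2 and Prosbeta5 for the third chromosome). Some signs also turned. In the 6 lines alone those that did were, for the first chromosome, Prosalpha7 (-0.067), Prosbeta2 (-0.17) and Prosbeta5 (-0.054), and for the third Prosalpha4 (-0.24). With median scaling they were Prosbeta5 for the first (-0.013) and Prosalpha4 for the third chromosome (-0.018). Leaving out arrays singly gave -0.26 to 0.35 for Prosbeta2 and -0.37 to 0.097 for Prosbeta5 between the strains, -0.14 to 0.17 for Prosbeta2 and -0.061 to 0.13 for Prosbeta5 for the first chromosome, and -0.15 to 0.29 for Prosalpha4 for the third. The causes of these changes were not tested. Fits of the 6 lines alone have 2 residual degrees of freedom.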
